A study of Mus musculus with 55 samples.

Results

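The genes described here are 10 RNA-binding proteins and splicing kinases: the cold-inducible proteins Cirbp and Rbm3, the hnRNP genes Hnrnpdl, Hnrnpd, Hnrnpa2b1 and Hnrnph1, the SR protein genes Srsf5 and Srsf7, and the kinase genes Clk1 and Clk4. They were taken by symbol from a table of read counts for 55487 genes, and all 10 were among the 16168 genes with more than 1 CPM (reads scaled to the size of the library) in at least 10 libraries. The list was drawn up with earlier results of these data known, so the levels of the 10 genes are given as a description. Their 105 transcripts in the transcript table, of 109383 in all, comprised 31 protein-coding, 34 retained-intron, 17 nonsense-mediated decay and 23 other transcripts.

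The libraries came from the dorsal hippocampus of 55 mice of the C57/BL6j background, 1 mouse each, aged 10.86 to 23.71 weeks. Wild-type (WT) mice were 5 males and 22 females, of which metestrus held 4, diestrus 6, proestrus 5 and estrus 7. Cnih3 knock-out (KO) mice, in which the AMPA receptor auxiliary subunit gene Cnih3 lacks exon 4 and its reading frame is shifted, were 7 males and 5, 6, 4 and 6 females in the same stages. Estrous stage was scored from vaginal cytology at collection, in cycling females. WT mice came from 2 kinds of mating: 16 of 27 had B6 x B6 parents. The other 11, like all 28 KO mice, had parents recorded as Cnih3 x B6, a label used here as given. By the study's methods, KO mice came from pairs of Cnih3 heterozygotes or, at times, from a heterozygote and a homozygote. Poly(A) RNA was read from the supernatant of a detergent lysate after a spin, and the libraries held 25881295 to 63547098 counted reads.

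On GRCm38 the RNA-binding members lie at chr10:80165985-80172786 (Cirbp, plus strand), chrX:8138975-8145880 (Rbm3, minus), chr5:100033577-100039664 (Hnrnpdl, minus), chr5:99955935-99978938 (Hnrnpd, minus), chr6:51460932-51469894 (Hnrnpa2b1, minus), chr11:50376990-50386528 (Hnrnph1, plus), chr12:80945504-80950507 (Srsf5, plus) and chr17:80200080-80207307 (Srsf7, minus).

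Cirbp and Rbm3 are RNA-binding proteins whose transcripts accumulate when temperature drops mildly. SR proteins bind exonic enhancers and favour splicing, hnRNPs bind pre-mRNA and often repress it, and CLK kinases phosphorylate SR proteins and release them from nuclear speckles. Many such genes limit their own protein by splicing into forms that are not translated in full: an intron is kept and the transcript stays in the nucleus, or a "poison" exon brings an early stop codon and the transcript is degraded by nonsense-mediated decay. Clk1 transcripts with retained introns form a nuclear pool that can be spliced to completion on demand.

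The structures behind these forms are shown for 6 members with a retained intron or an extra exon, since the transcript results turn on them. Coordinates are of GRCm38, and the bases were read from GENCODE M21 transcripts. In Clk1 (chr1:58410189-58424066, minus strand), transcript Clk1-204 kept the introns of 387 and 871 bases on either side of a 91-base exon, and Clk1-210 skipped that exon. In Clk4 (chr11:51261730-51281766, plus strand), Clk4-213 kept the introns of 1055 and 391 bases around the corresponding exon. The exon is in capitals with 15 bases of each flanking intron, at chr1:58420106-58420226 and chr11:51273063-51273183, and the copies were identical at 85 of 91 bases, or 93.4%.

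Clk1 exon: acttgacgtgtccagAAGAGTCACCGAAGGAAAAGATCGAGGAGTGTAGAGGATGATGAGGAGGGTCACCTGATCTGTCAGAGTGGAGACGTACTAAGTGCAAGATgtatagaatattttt
Clk4 exon: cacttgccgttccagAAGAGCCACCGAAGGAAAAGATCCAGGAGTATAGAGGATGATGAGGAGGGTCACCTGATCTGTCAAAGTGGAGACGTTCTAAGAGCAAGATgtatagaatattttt

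In Rbm3 (chrX:8138975-8145880, minus strand) the decay transcript Rbm3-207 carried an extra exon of 271 bases, whose stop codon ended 63 bases in. In Srsf7 (chr17:80200080-80207307, minus strand) Srsf7-203 carried one of 460 bases, with a stop codon ending 28 bases in. The start of each exon is shown with the last 15 bases of the intron before it and with its stop codon in capitals, at chrX:8144383-8144460 and chr17:80205054-80205096.

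Rbm3 extra exon: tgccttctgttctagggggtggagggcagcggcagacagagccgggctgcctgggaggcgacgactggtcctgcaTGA
Srsf7 extra exon: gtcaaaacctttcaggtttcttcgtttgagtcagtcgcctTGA

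The main retained introns of the others were of 1229 bases in Srsf5-212, 874 in Srsf7-206 and Srsf7-207, 625 in Rbm3-209 and 217 in Cirbp-204. The 5′ ends of these introns are shown as 12 exon and 18 intron bases, with the first 2 intron bases in capitals, because the retained-intron transcripts are told from the spliced ones by reads across these junctions and within the introns. They lie at chr12:80947854-80947883, chr17:80205244-80205273, chrX:8144555-8144584 and chr10:80170753-80170782.

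Srsf5 intron start: gtcagctggcagGTttgttgaaatacagtt
Srsf7 intron start: aagaagaagcagGTatttaattaatgaagg
Rbm3 intron start: atgaatggagagGTgaggcctcctgcctgc
Cirbp intron start: atgacagttatgGTaagtctagctccaagg

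**Figure D1:**
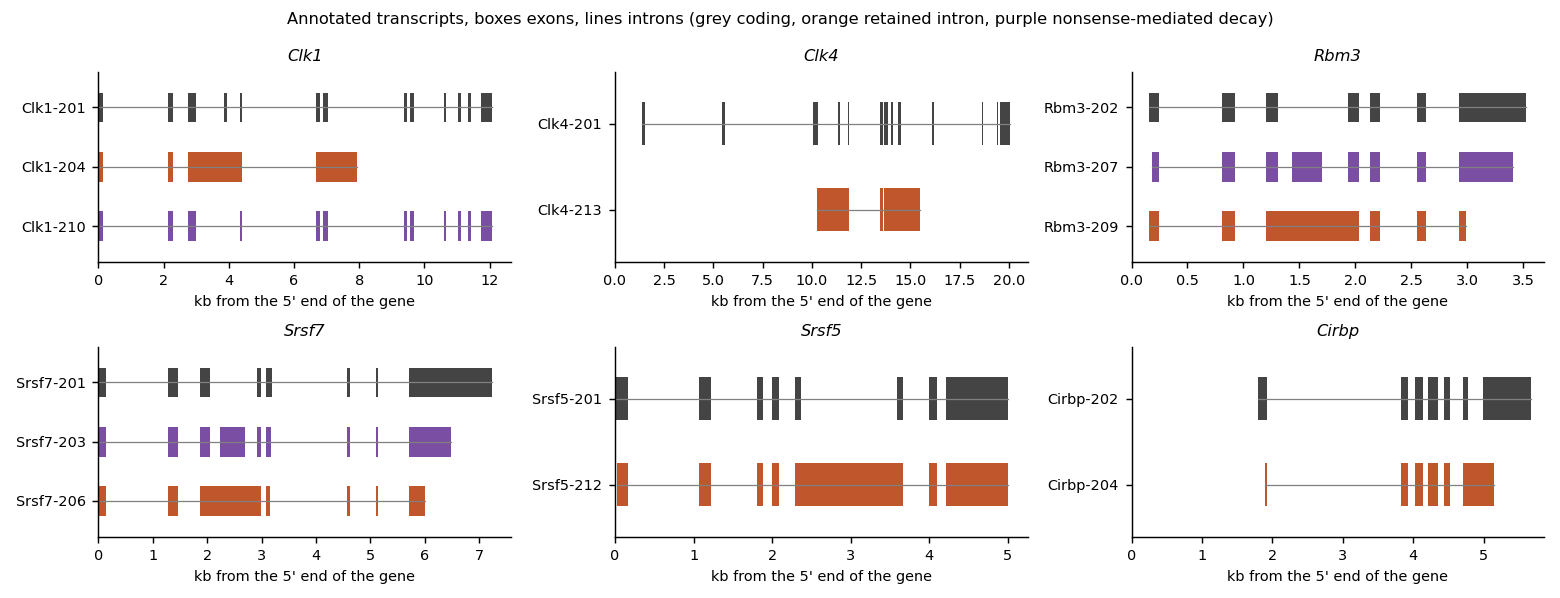
Exon maps of the spliced, retained-intron and nonsense-mediated decay transcripts of Clk1, Clk4, Rbm3, Srsf7, Srsf5 and Cirbp. The x axis is the distance from the 5′ end of the gene in kb and each row is a transcript; the exon of 91 bases in Clk1 and Clk4 is joined to its neighbours in the transcripts that keep both introns.

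Per kilobase of exon, Hnrnpa2b1 and Cirbp were the most abundant members, with means of 95.3 and 94.4 CPM per kb over the 55 mice. Their ranges between mice, 76.9 to 123 and 63.6 to 148, overlapped, so these neighbours in the order did not differ beyond their spread. Srsf7 and Hnrnpdl were lower (42.65 and 41.4 CPM per kb), and Clk4 and Clk1 were lowest (7.89 and 5.97). Clk1 also had the largest ratio of highest to lowest mouse among the 10 genes, at 8.90 and 2.32 CPM per kb, while Hnrnph1 was the most even, at 24.4 to 31.9. Counts of a member in 1 library ran from 917 (Clk1) to 41856 (Hnrnpa2b1). All further gene levels are log2 CPM after TMM scaling.

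The deleted gene could not serve as a label check. Cnih3 counts cover all of its exons, and its level ran from 4.44 to 5.97 log2 CPM in WT and from 4.43 to 5.58 in KO mice. In addition, 1 set of libraries stood apart: the 7 diestrus mice under 14 weeks of age, 3 WT and 4 KO. They are also the only mice named by a plain number of 3 digits. The labels do not say what this name series marks, and within diestrus it cannot be told apart from age. Levels of the nuclear RNA Meg3 in these 7 mice were 6.78 to 7.68 log2 CPM against 7.99 to 10.48 in the other 48. Those of Neat1 were 3.30 to 3.83 against 4.18 to 5.71. Among diestrus mice, summed microglial markers (4 of 4 measured) were 75.1 to 92.2 CPM in the young against 101.6 to 119.5 in the older mice, pan-neuronal markers (4 of 4) were 9429 to 10940 against 7959 to 9497, dentate granule cell markers (3 of 3) were 104.4 to 136.7 against 134.5 to 182.7, CA1 pyramidal cell markers (4 of 4) were 209.8 to 310.2 against 272 to 323.9, oligodendrocyte markers (5 of 5) were 2451 to 3079 against 2725 to 4527 and choroid plexus markers (5 of 5) were 129.1 to 1130 against 24.7 to 168.1. Of these lists only the microglial ranges were apart, and the rest overlapped between the ages. The remaining marker lists also overlapped. Astrocyte markers were 748.8 to 890.6 against 678.6 to 871.9 CPM and endothelial markers 9.30 to 15.8 against 10.5 to 16.2. Thalamus markers were 39.8 to 66.1 against 39.4 to 60.5 and pituitary markers 4.64 to 186.9 against 15.8 to 76.2. In bulk tissue, fewer cells of a type and less RNA per cell cannot be told apart. Values without these 7 mice are therefore set beside the diestrus differences of the members. They rest on 3 WT and 2 KO diestrus mice.

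Clk1, which phosphorylates SR proteins, had the largest stage differences of the 10 genes, and its low values were in young diestrus mice. In WT mice the levels in metestrus were 5.80, 5.89, 5.92 and 6.01 log2 CPM, in proestrus 5.15, 5.53, 5.60, 5.66 and 5.89, and in males 4.83, 5.17, 5.25, 5.26 and 5.76. The 7 WT estrus mice had a lowest, median and highest level of 5.33, 5.73 and 6.00, and the 6 WT diestrus mice of 4.24, 5.35 and 6.18. The stage means thus stood between 5.26 ± 0.83 (SD, n = 6) in diestrus and 5.91 ± 0.09 (SD, n = 4) in metestrus, and diestrus had by far the widest spread.

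In KO mice Clk1 had the levels 5.34, 5.55, 5.63, 5.91 and 6.05 in metestrus and 5.12, 5.71, 5.78 and 5.91 in proestrus. Lowest, median and highest levels were 5.24, 6.01 and 6.16 in KO estrus, 4.57, 4.71 and 5.82 in KO diestrus and 5.33, 5.43 and 5.75 in KO males. Within diestrus the ages did not overlap. The young WT mice had 4.24, 4.39 and 5.04 and the young KO mice 4.57, 4.70, 4.71 and 4.71. The diestrus mice of 14 weeks or more had 5.65, 6.03 and 6.18 in WT and 5.74 and 5.82 in KO, which lay among the other females. The 9 females under 14 weeks in other stages had 5.12 to 6.05, all above the young diestrus mice.

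**Figure D2:**
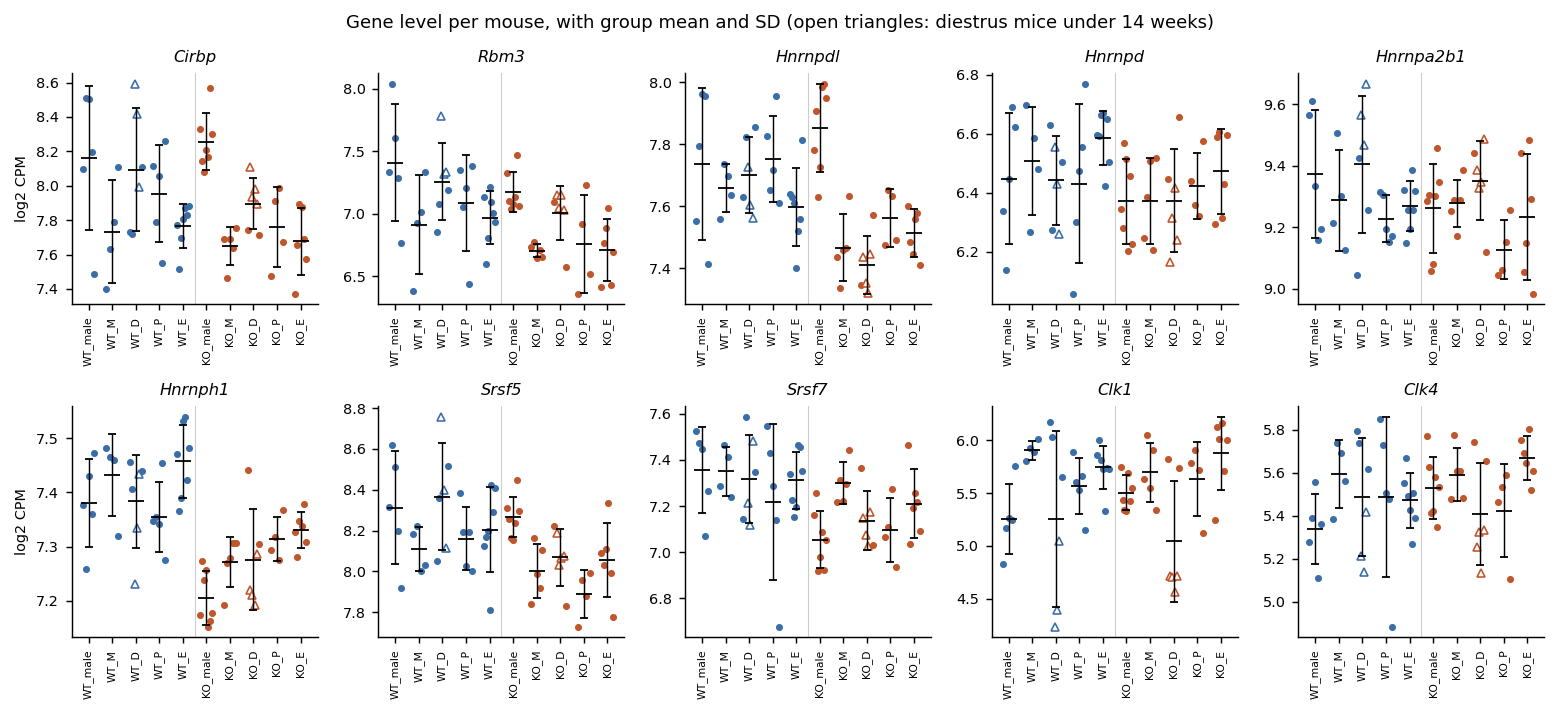
Levels of the 10 genes in each mouse, as log2 CPM on the y axis, by genotype and by sex or stage on the x axis; bars give the mean and SD of each group and open triangles mark diestrus mice under 14 weeks. For Clk1 the triangles lie between 4.24 and 5.04, under every diestrus mouse of 14 weeks or more.

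The fitted fold changes of Clk1 had the direction of these levels. With quality weights per library they were larger in size than the differences of the group means. Diestrus minus estrus was -0.75 ± 0.18 (log2, SE) in WT and -1.14 ± 0.17 in KO, diestrus minus metestrus -0.89 ± 0.19 and -0.87 ± 0.17, and diestrus minus proestrus -0.59 ± 0.20 and -0.94 ± 0.18. Without the young diestrus mice, diestrus minus estrus was 0.13 in WT and -0.18 in KO, diestrus minus metestrus -0.01 and 0.08, and diestrus minus proestrus 0.30 and 0.01. The comparisons against one stage share the same diestrus mice and are not independent of each other. The difference between genotypes in the diestrus minus estrus change was -0.39 ± 0.25 for Clk1, and limma called 0 of the 16168 genes for this difference (421 at an unadjusted p under 0.05, none of them a member).

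Clk4, a paralogue with the same substrates, had a narrower range. In diestrus its levels were 5.14 to 5.42 in the young and 5.62 to 5.80 in the older mice, again without overlap, but the 31 females in other stages covered 4.88 to 5.85. Diestrus minus estrus was -0.08 ± 0.10 in WT and -0.33 ± 0.09 in KO, and these became 0.21 and 0.04 without the young mice. After group means were removed, Clk1 and Clk4 levels correlated at r = 0.748 over the 55 mice, which share library depth and composition. Clk4 is overlapped by BC049762 on the opposite strand and by Gm25082 on the same strand. The libraries do not mark strand and the study counted unambiguous reads. How reads in such overlaps were assigned was not checked.

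Of the members that bind RNA, Cirbp had the largest stage differences in WT mice, with higher levels in the young diestrus mice. It was 7.40, 7.63, 7.79 and 8.11 log2 CPM in metestrus, 7.55, 7.79, 8.06, 8.11 and 8.26 in proestrus, 7.52, 7.81 and 7.88 (lowest, median, highest) in estrus and 7.72, 8.05 and 8.59 in diestrus. Diestrus minus estrus was 0.42 ± 0.12 in WT and 0.23 ± 0.12 in KO, although the groups overlapped in both. Without the young mice it was 0.12 in WT and 0.00 in KO. Cirbp averaged 8.13 log2 CPM in the 7 young diestrus mice (7.89 to 8.59), 7.80 in the 5 older ones (7.72 to 8.11) and 7.81 in the 22 females of 14 weeks or more in other stages (7.52 to 8.26). The 9 females under 14 weeks in other stages had the lowest mean, 7.63 (7.37 to 8.11). Rbm3 gave 0.35 ± 0.14 and 0.32 ± 0.14 in diestrus minus estrus, and 0.11 and 0.08 without the young mice. The mean levels of both genes had one order in both genotypes, metestrus lowest, then estrus, proestrus, diestrus and males, with neighbouring groups overlapping, and their levels within groups correlated at r = 0.859 (n = 55). Rbm3 is overlapped by its antisense gene Rbm3os.

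Counts of members called at a false discovery rate (FDR) under 0.05 are set beside the share of all tested genes called, and nothing is read from them, as the list was chosen on these contrasts. In WT diestrus minus metestrus, 3 members were called (Cirbp 0.43 ± 0.13 and Srsf5 0.33 ± 0.10 higher, Clk1 lower) against 7.24% of all genes, and in diestrus minus estrus 2 (Cirbp and Clk1) against 22.1%. In WT diestrus minus proestrus it was 0 (4 at an unadjusted p under 0.05) against 9.66%, in diestrus minus males 0 (0 unadjusted) against 0.068%, and in proestrus minus estrus 0 (1 unadjusted) against 6.82%. edgeR and DESeq2 also called 0 members in these last 3 WT comparisons.

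In KO mice the counts were 1 (Clk1) in diestrus minus metestrus against 10.4%, 2 in diestrus minus proestrus (Clk1, and Hnrnpa2b1 at 0.28 ± 0.08) against 34.3%, and 4 in diestrus minus estrus against 30.7%. The last 4 were Clk1, Clk4, Hnrnpd (-0.21 ± 0.08) and Hnrnpa2b1 (0.20 ± 0.07). Diestrus minus males called 4, all lower, where 18% of all genes were called lower (28.7% in all): Hnrnpdl (-0.47 ± 0.06), Cirbp (-0.29 ± 0.10), Clk1 (-0.73 ± 0.16) and Clk4 (-0.25 ± 0.08). Without the young mice these differences from males were -0.42, -0.53, 0.22 and 0.11, none of them called with 2 KO diestrus mice left. Hnrnpdl and Cirbp kept their direction. In KO proestrus minus estrus limma, edgeR and DESeq2 each called 0 members (0 unadjusted in limma) against 0.507% of all genes. Without the 7 young diestrus mice, limma called 0 of 16168 genes in diestrus minus metestrus, proestrus or estrus of either genotype. At an unadjusted p under 0.05 this left 1, 1 and 2 members in WT and 0, 0 and 0 in KO. With 3 WT and 2 KO diestrus mice left, these counts cannot tell an absent difference from too few mice.

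**Figure D3:**
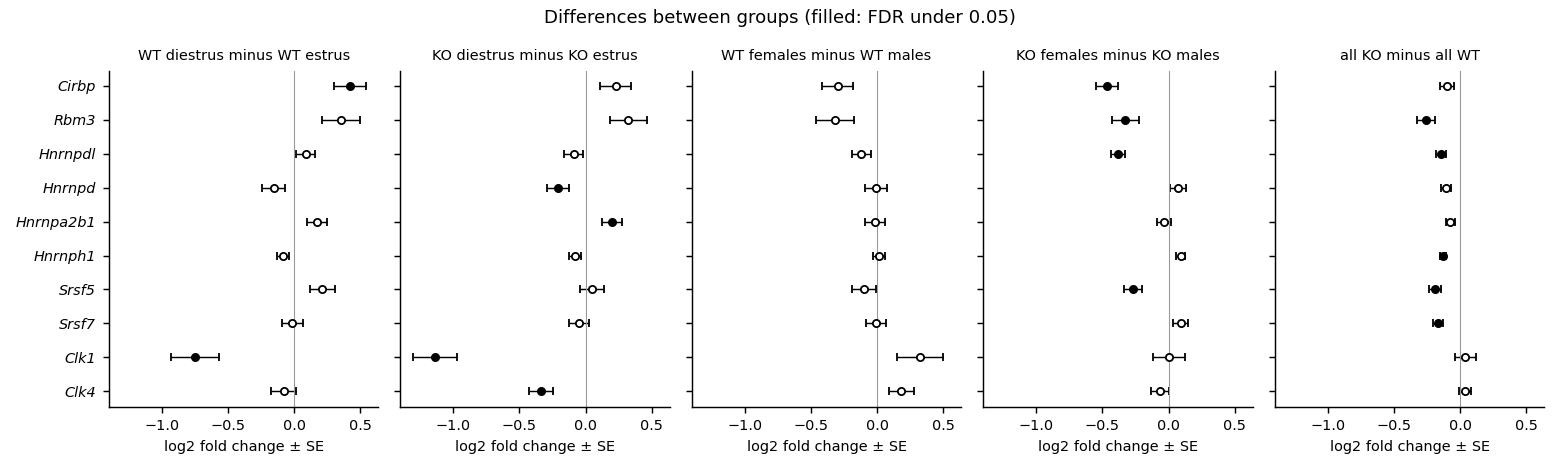
Fitted log2 fold change of each gene with its SE (y axis: genes; x axis: log2 fold change) in 5 comparisons; filled points passed FDR 0.05 over the 16168 genes tested. Clk1 reaches -0.75 in WT and -1.14 in KO diestrus minus estrus, while the other 9 genes lie between -0.33 and 0.42 in these comparisons.

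Among the hnRNPs, Hnrnpa2b1, whose product takes part in alternative splicing and RNA transport, was at 9.33 to 9.67 log2 CPM in young and 9.05 to 9.44 in older diestrus mice, which overlapped. Its diestrus minus estrus difference was 0.17 ± 0.08 in WT, where it was not called, and without the young mice it was 0.00 in WT and 0.10 in KO. Hnrnpd, also AUF1, binds AU-rich elements and affects mRNA stability. Its diestrus minus estrus difference was -0.16 ± 0.09 in WT and -0.21 in KO. Without the young mice these were -0.15 and 0.03. The antisense gene Gm17092 overlaps Hnrnpd. Hnrnph1 and Hnrnpdl, a paralogue of Hnrnpd, lay within 0.09 of 0 in both genotypes in diestrus minus estrus. Without the young mice Hnrnph1 was at -0.02 in WT and 0.04 in KO and Hnrnpdl at 0.19 and -0.03.

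Of the SR protein genes, Srsf7 differed by -0.01 ± 0.08 in WT and -0.05 in KO between diestrus and estrus, and Srsf5, which like Srsf7 binds exonic enhancers, by 0.21 ± 0.09 and 0.05. Against WT metestrus, where it was called, Srsf5 went from 0.33 to 0.27 without the young mice and was no longer called. In diestrus minus estrus without them Srsf5 was at 0.16 in WT and -0.01 in KO, and Srsf7 at 0.08 and 0.02. Hnrnpd levels were inversely related to those of Srsf7 (r = -0.691) and Hnrnpa2b1 (r = -0.639) within groups, while Srsf5 went with Hnrnpa2b1 (r = 0.580; n = 55 in each). These r values are descriptions over libraries that share depth and composition.

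The comparison of males with females was added after the levels were seen, as the mean of the 4 stages minus males. In KO mice Cirbp was lower in females: the 7 males had a lowest, median and highest level of 8.08, 8.21 and 8.57 log2 CPM. The females had 7.46, 7.64, 7.69, 7.69 and 7.76 in metestrus, 7.47, 7.67, 7.91 and 7.98 in proestrus, 7.72, 7.91 and 8.11 (lowest, median, highest) in diestrus and 7.37, 7.67 and 7.89 in estrus. Of 21 KO females, 1 was above the lowest male, and the fitted difference was -0.47 ± 0.08.

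Hnrnpdl differed in the same way. Its KO males had 7.63, 7.91 and 7.99 (lowest, median, highest), and the KO females ran from 7.32 to 7.65, with 3 of 21 above the lowest male and a fitted difference of -0.38 ± 0.05. Rbm3 (-0.33 ± 0.10, 6 of 21 above the lowest male) and Srsf5 (-0.27 ± 0.06, 4 of 21) were lower in KO females with more overlap. These 4 members were called, all lower, beside 3.83% of all genes called lower (5.93% in all), and 4 members were called without the young diestrus mice beside 4.55%.

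In WT mice Cirbp was 7.48, 8.10, 8.20, 8.50 and 8.51 in males and 7.40 to 8.59 in the 22 females, of which 21 were above the lowest male. The fitted differences were -0.30 ± 0.12 for Cirbp and -0.32 ± 0.14 for Rbm3, and limma called 0 members (2 unadjusted), as did edgeR and DESeq2, beside 0.0309% of all genes. Whether the sex difference differed between genotypes was not tested. KO males were 18.29 to 23.71 weeks old and KO females 10.86 to 23.43, and with age as a covariate 2 of the 4 KO calls remained (Cirbp and Hnrnpdl).

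KO mice of all groups, against WT, had lower levels of 5 members, where 1.9% of all genes were called lower (3.4% in all), and the median difference was -0.119 over the 10 members and -0.003 over all genes. Hnrnph1, which binds G-rich elements in pre-mRNA, had group means of 7.35 to 7.46 log2 CPM in WT and 7.21 to 7.33 in KO, and a fitted difference of -0.13 ± 0.02. Its WT and KO means did not overlap, although single mice did. Rbm3 (-0.26 ± 0.07), Srsf5 (-0.19 ± 0.04), Srsf7 (-0.17 ± 0.04) and Hnrnpdl (-0.14 ± 0.03) were the others, and Clk1 did not differ beyond its error (0.04 ± 0.08). Only 11 WT mice, but all KO mice, had Cnih3 x B6 parents, so breeding and genotype are partly confounded. Against these 11 WT mice alone, the difference of Srsf7 was -0.001. Those of the other called members in that setting are not given here. In WT, 3 of 4 metestrus, 4 of 5 proestrus and 6 of 7 estrus mice had B6 x B6 parents and were left out there. Too few WT mice remained in these stages for calls to be read. Without the young diestrus mice 4 members were called, Rbm3 being lost, beside 1.45% of all genes. With all mice, genes of the same kinds went the same way in part. Of 22 other hnRNPs 0 were called higher and 6 lower (median -0.081), and of 11 other SR proteins 0 and 3 (median -0.083). Of 8 other SR kinases 0 were called. Of 24 other genes known for retained introns or poison exons, 1 was higher and 2 lower.

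Non-coding transcripts, meaning retained-intron, decay and other untranslated forms, are given as estimated transcript counts per 100 reads on the gene. The estimates count fragments and the gene table counts reads, so the value compares mice and is not a percent. For 6 members it did not overlap between young and older diestrus mice: Rbm3 0.388 to 2.01 against 2.26 to 5.55, Srsf5 1.29 to 4.14 against 5.24 to 10.0, Srsf7 1.54 to 3.87 against 4.93 to 6.92, Hnrnpa2b1 1.14 to 1.5 against 1.78 to 2.78, Hnrnph1 7.64 to 9.92 against 10.8 to 15.0 and Clk4 6.56 to 8.21 against 10.1 to 13.4. The lower values were in the young mice in each case. How many of all genes fail to overlap in this way was not counted, so the 6 are not read as a trait of the members. In diestrus minus estrus the same measure was lower in 60.6% of 6354 genes in WT and in 65.9% in KO. Of the 10 members, 9 were lower in each genotype. For Cirbp (0.403 to 0.876 against 0.816 to 1.22), Clk1 (11.6 to 28.4 against 15.7 to 30.5), Hnrnpdl and Hnrnpd the ranges overlapped.

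**Figure D4:**
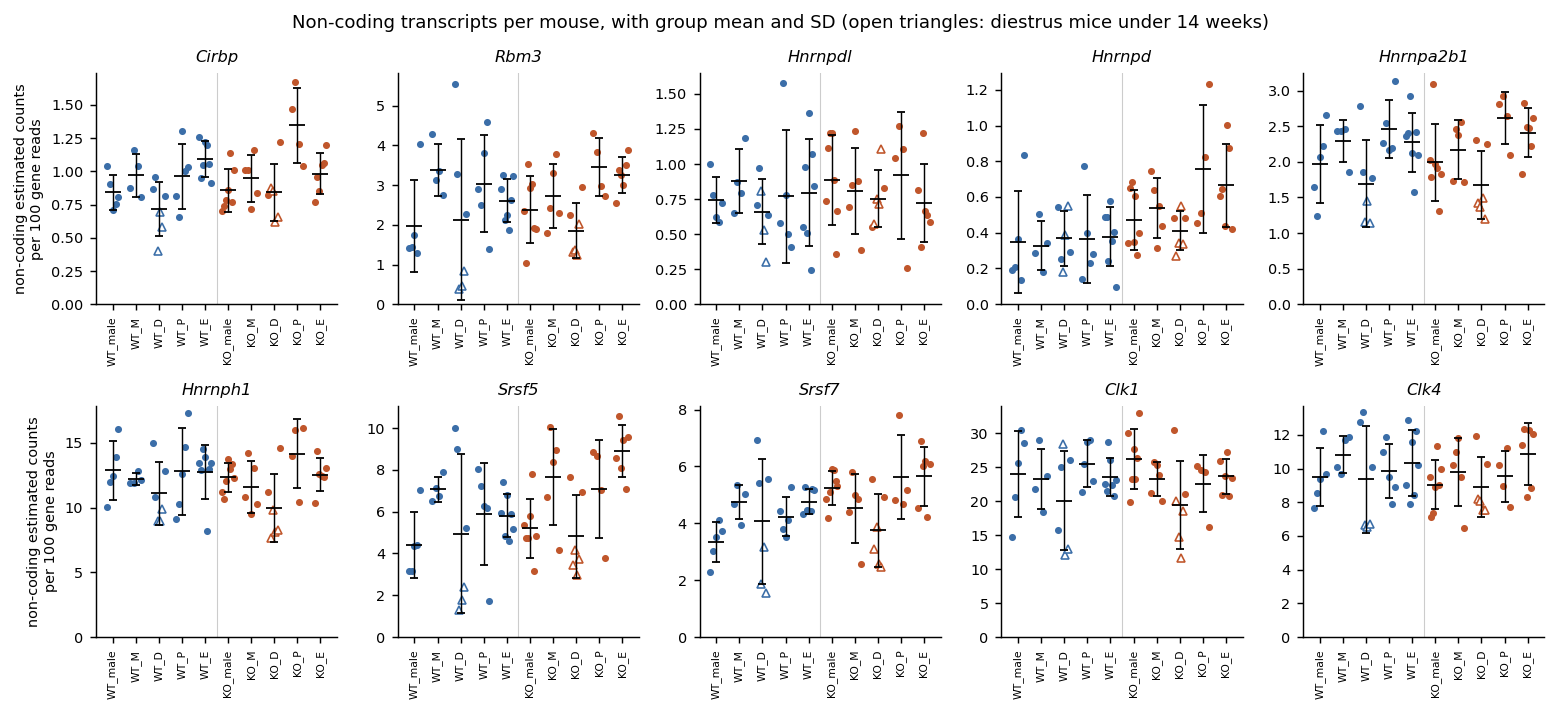
Non-coding estimated transcript counts per 100 reads of the gene (y axis) in each mouse by group (x axis), with mean and SD; open triangles mark diestrus mice under 14 weeks. The triangles of Srsf7 lie between 1.54 and 3.87 and those of Rbm3 between 0.388 and 2.01.

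Over the groups, Srsf5 non-coding counts per 100 reads were highest in KO estrus (8.89 ± 1.24, SD, n = 6) and lowest in WT males (4.41 ± 1.57, n = 5), with WT diestrus (4.95 ± 3.79, n = 6) the most variable. Rbm3 had its lowest mean in KO diestrus (1.86 ± 0.68, n = 6) and its highest in KO proestrus (3.46 ± 0.74, n = 4). Neighbouring groups overlapped for both genes, and males of either genotype lay within the range of the females. For Hnrnpd the values were small in all groups, with means of 0.329 to 0.379 in WT and 0.411 to 0.756 in KO.

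Most of the single transcripts with the introns shown above were also lower in the young diestrus mice. Srsf7-207 had a mean of 0.0814 estimated CPM (0 to 0.308) in young and 3.73 (1.76 to 5.83) in older diestrus mice. Srsf7-206, which keeps the same intron, had 1.31 (0.714 to 1.94) and 2.49 (1.44 to 3.20), with overlap. How the estimates divide reads between these transcripts was not tested. Srsf5-212 had 5.74 (2.92 to 8.53) and 20.6 (14.6 to 26.9), and Rbm3-209 had 0.619 (0.371 to 0.816) and 2.01 (1.27 to 2.77). For the kinases, Clk1-204 with both introns kept had 1.01 (0.354 to 1.91) and 4.76 (2.80 to 6.44), and Clk4-213 had 1.17 (0.797 to 1.49) and 4.19 (2.98 to 4.86).

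Among other forms, Hnrnpa2b1-211 (4.86 to 7.31 in young and 7.77 to 10.75 in older diestrus mice), Hnrnph1-205 (0.395 to 1.35 and 2.07 to 5.63) and Clk1-202 (0.211 to 0.796 and 1.36 to 3.83) also did not overlap between the ages. Some did overlap. Clk1-210, which skips the 91-base exon, was at 1.26 to 3.88 estimated CPM in young and 0 to 6.58 in older diestrus mice. Rbm3-207, with the extra exon shown above, ranged from 0 to 1.46 and from 0.590 to 3.64. Cirbp-204, with the 217-base intron, had means of 0.754 and 0.802.

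For Cirbp and Rbm3, all of whose annotated transcripts were in the table, the non-coding forms can be given as a percent of all estimated counts of the gene. Over the 55 mice the mean was 2.38% for Cirbp (0.994% to 4.06%) and 2.96% for Rbm3 (0.443% to 6.24%). Rbm3 was at 1.26% (0.443% to 2.26%) in young and 3.72% (2.55% to 6.24%) in older diestrus mice. The gene level of Rbm3 in the same mice went the other way, at 7.03 to 7.78 and 6.58 to 7.19 log2 CPM, with overlap.

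The log2 ratio of non-coding to coding counts was tested over the 4880 genes with both kinds at a mean of 10 counts or more. They include 9 members but not Clk1, with 0 coding transcripts estimated. Coding transcripts of Hnrnpd, Hnrnpa2b1, Hnrnph1, Srsf5, Srsf7 and Clk4 were also missing, so their ratios are to the coding forms left. The largest left were Hnrnph1-202 (mean 284 estimated counts) and Srsf7-208 (mean 230), while the genes had at least 3964 and 3666 reads per library. In all 14 comparisons limma called 0 members at FDR 0.05. The share of all 4880 genes called was 0.266% in KO diestrus minus estrus, 0.082% in KO diestrus minus proestrus and minus males, 0.0615% in WT females minus males, 0.0205% in WT diestrus minus males, in KO minus WT and in KO females minus males, and 0 in the rest. At an unadjusted p under 0.05 there were 3 of 9 in WT and 4 of 9 in KO diestrus minus estrus, beside 16.1% and 16.2% of all genes. The largest differences were Rbm3 in WT diestrus minus metestrus (-1.28 ± 0.45, limma FDR 0.294) and Srsf5 in KO diestrus minus estrus (-1.20 ± 0.39, limma FDR 0.115). In KO minus WT, 4 of 9 passed unadjusted beside 5.18% of all genes, with Hnrnpd at 0.72 ± 0.19 (limma FDR 0.295). Without the young diestrus mice the Rbm3 and Srsf5 differences named above were 0.09 and -0.38. With reads of the gene as the denominator, added after the files were seen, 6354 genes and all 10 members could be tested and limma again called 0 members, beside 0.299% of all genes in KO diestrus minus estrus, 0.22% in KO diestrus minus males, 0.126% in KO diestrus minus proestrus, 0.063% in WT females minus males, 0.0157% in WT diestrus minus metestrus and minus proestrus, KO proestrus minus estrus, KO minus WT and KO females minus males, and 0 in the rest. The ratio shifted in all genes too, with a median of -0.249 in WT and -0.268 in KO diestrus minus estrus against -0.361 and -0.605 over the members.

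Clk1 level and the non-coding shares moved with Meg3, a nuclear poly(A) RNA. After group means were removed, r with Meg3 over the 55 mice was 0.853 for Clk1, 0.480 for Clk4, -0.394 for Cirbp and -0.530 for Hnrnpa2b1. Removing group means keeps the split between young and older mice within diestrus. There Meg3 had an SD of 1.69 in WT and 1.43 in KO, against 0.10 to 0.82 in the other groups. The split therefore weighs on every r with Meg3 given here, and r without the 7 young mice was not computed. For the non-coding counts per 100 reads it was 0.815 for Srsf7, 0.737 for Hnrnph1, 0.726 for Rbm3, 0.699 for Srsf5, 0.693 for Hnrnpa2b1 and 0.662 for Clk4, against 0.126 for Hnrnpd and 0.072 for Hnrnpdl. Other nuclear RNAs differed in how closely Clk1 followed them, from 0.866 for Miat, 0.781 for Neat1 and 0.664 for Malat1 to 0.587 for Kcnq1ot1, 0.410 for Mirg and 0.356 for Rian. Rian was at 7.09 to 7.30 log2 CPM in the young diestrus mice, within the 6.17 to 7.62 of the others. All points share a library. The part of nuclear RNA recovery, age, the mouse name series and cell type content in these results was not tested.

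**Figure D5:**
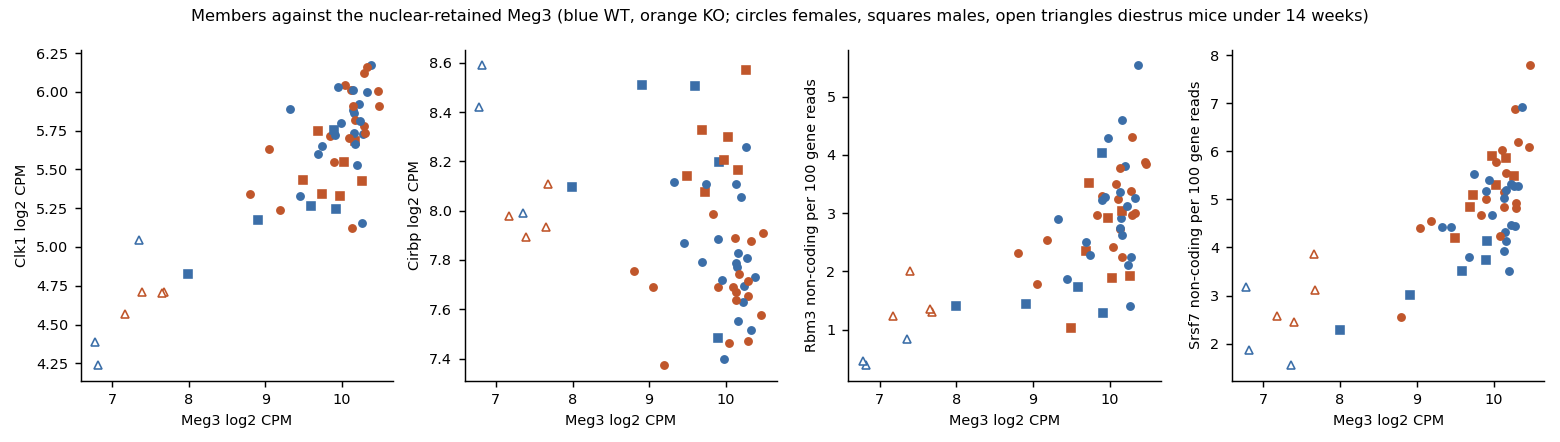
Clk1 and Cirbp levels (log2 CPM) and Rbm3 and Srsf7 non-coding counts per 100 gene reads (y axes) against Meg3 level (x axis, log2 CPM), with 1 point per mouse and open triangles for diestrus mice under 14 weeks. The 7 triangles lie at Meg3 levels of 6.78 to 7.68, under all other mice, and Clk1 rises along the axis (r = 0.853 after group means were removed, with the triangles included).

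Other genes of the same kinds were counted in diestrus minus estrus, where 9.05% of all genes were called higher and 13.1% lower in WT, and 11.3% and 19.3% in KO. Of 11 other SR proteins, 0 were higher and 5 lower in WT (median -0.245) and 0 and 6 in KO (median -0.295), among them Srsf2 (-0.96 ± 0.21 in WT, -1.16 ± 0.20 in KO) and Srsf11 (-0.68 and -0.83). Of 24 other genes known for retained introns or poison exons, most of them RNA-binding, 1 was higher and 12 lower in WT. In KO 0 were higher and 14 lower. Luc7l2, a U1 snRNP-associated protein, was at -0.94 and -1.07. The cyclins Ccnl1 (-0.75 in WT) and Ccnl2 (-0.99 in KO), which partner splicing-related kinases, were also among the lower. The medians over all genes were -0.009 and -0.015. Of 22 other hnRNPs, 1 was higher and 4 lower in WT and 4 and 4 in KO, with the nuclear scaffold protein gene Hnrnpu at -0.45 in WT and -0.47 in KO and Hnrnpll at -0.45 and -0.43. Other SR kinases had 0 higher and 2 lower of 8 in WT (Clk2 at -0.40, Prpf4b at -0.24) and 2 and 1 in KO (Srpk3 at 0.88, Clk2 at -0.34). With 22.1% of all genes called in WT and 30.7% in KO, the hnRNP and kinase counts are near the share over all genes.

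Of 15 heat shock genes, which respond to warming and protein stress, 5 were higher and 0 lower in WT and 4 and 1 in KO, with the chaperone Hspa8 at 0.43 and 0.49 and the co-chaperones Dnaja1 at 0.27 in WT and Bag3 at -0.38 in KO. Neuronal splicing factors had 2 higher and 1 lower of 18 in WT and 3 and 3 in KO, with Celf4 at 0.39 and 0.38 and Elavl4 at 0.27 and 0.32. Of 7 nuclear-retained RNAs, 0 were higher and 5 lower in both genotypes (medians -1.24 and -1.67), Meg3 at -2.01 and -2.35 and Miat at -2.02 and -2.11, and of 13 mitochondrial mRNAs 0 were called in WT and 1 in KO, mt-Nd4l at 1.40. The shares called were 3 of 18 for the neuronal splicing factors in WT and 5 of 15 for the heat shock genes in both genotypes, beside the same 22.1% and 30.7% of all genes. Without the 7 young diestrus mice no gene of any of these lists was called in diestrus minus estrus by limma, as for all 16168 genes. Few diestrus mice were left in that fit.

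Promoter sequence was read from RefSeq (GRCm38.p6, 250 bases before to 50 after each start), which held 14 promoters for 8 of the members. The motif TCCCCGCC, described as a mild-cold response element of the Cirbp promoter, or its reverse complement was in 2 of the 14 (14.3%) and in 1768 of all 32851 promoters (5.38%), both strands searched. The windows around it are shown for the cold-inducible Cirbp (chr10:80167589-80167625, plus strand, 247 bases before the start) and for Srsf7 (chr17:80207316-80207375, minus strand, 44 bases before the start), with the motif in capitals. A match is a description of these letters and says nothing of binding.

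Cirbp promoter: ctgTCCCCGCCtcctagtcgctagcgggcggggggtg
Srsf7 promoter: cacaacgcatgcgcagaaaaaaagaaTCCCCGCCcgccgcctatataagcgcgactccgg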

How the data were processed

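Per the labels and the study's methods, the authors aligned reads with STAR 2.7.9a to GRCm38, counted reads per gene with featureCounts 2.0.3 and estimated transcript counts with Salmon 1.5.2; whether counting used strand is not given in the sources used here. The deposited gene table holds raw counts per gene and the deposited transcript table holds estimated counts; the authors' log2 CPM table served only to check the scaling (16164 shared genes), and 1 column of no listed sample was not used. The members and all gene lists were chosen with earlier results of these data known. All 10 members were named with their transcripts, and of each list the 2 called genes with the largest absolute log2 fold change in diestrus minus estrus per genotype.

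Genes with more than 1 CPM in at least 10 libraries were kept, less 5 ribosomal RNA genes. Counts were scaled by TMM (edgeR 4.0.16) and fitted with voom and sample quality weights (limma 3.58.1, R 4.3.3), with the 10 groups as terms and Benjamini-Hochberg adjustment over all tested genes. Quality weights make a fitted difference depart from that of the group means. Transcript counts were summed per gene into coding and non-coding, 0.5 was added, and the log2 ratio was fitted with limma. Transcripts with a version number of 2 digits (0 of 7686 in the table, against 98.9% of 80231 with 1 digit) were not analysed here; they include coding transcripts of every member but Cirbp, Rbm3 and Hnrnpdl, and a decay transcript of Hnrnpdl. Alternatives used the edgeR quasi-likelihood test, DESeq2 1.42.0 with its own size factors, no weights, no filter, age as a covariate, subsets of mice and each mouse left out. The scripts were tested on simulated data. Reads that a member shares with a near-identical pseudogene or paralogue may be lost or split. Each mouse is 1 library, so p-values measure spread between mice.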

Additional observations from a re-analysis of the deposited data

Results flagged for a closer look

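Of 200 groups of mice tested for a single extreme value (10 members, 10 groups, gene level and non-coding counts per 100 gene reads), 9 had one by Dixon's criterion, where chance gives about 1 in 20. At gene level, 3 of 100 were marked. The lowest KO diestrus mouse had 6.58 log2 CPM of Rbm3 (next 7.03), the lowest WT metestrus mouse 7.32 of Hnrnph1 (next 7.46) and the lowest WT estrus mouse 5.33 of Clk1 (next 5.73).

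Among the non-coding counts per 100 gene reads, 6 of 100 were marked. A WT male had 4.03 for Rbm3 (next 1.73), a KO male 3.10 for Hnrnpa2b1 (next 2.02) and a KO proestrus mouse 7.81 for Srsf7 (next 5.16), all the highest of their groups. The lowest of their groups were a WT metestrus mouse with 1.86 for Hnrnpa2b1 (next 2.43), a WT estrus mouse with 8.21 for Hnrnph1 (next 12.9) and a KO proestrus mouse with 16.3 for Clk1 (next 24.3). The WT metestrus mouse low in Hnrnph1 was also the one low in Hnrnpa2b1 non-coding counts, and the WT estrus mouse low in Clk1 was the one low in Hnrnph1 non-coding counts.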

How the results depend on the processing

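Calls of members between stages were often lost without the quality weights or the young diestrus mice. Without weights the Clk1 difference in diestrus minus estrus was -0.51 in WT and -0.83 in KO. Where limma called 3 members in WT diestrus minus metestrus, edgeR, DESeq2, voom without weights, age as a covariate and leaving out the 7 young diestrus mice each gave 0, and no filter gave 1. For WT diestrus minus estrus (2 called), edgeR, DESeq2, no weights and leaving out the young mice each gave 0. In WT the Cnih3 x B6 matings alone gave 2 in diestrus minus males, from 0. In diestrus minus proestrus they turned the difference of Srsf7 to 0.60, but 4 of the 5 WT proestrus mice were left out there. For KO diestrus minus metestrus (1 called), edgeR, DESeq2, no weights, age and leaving out the young mice each gave 0 and the Cnih3 x B6 matings 2. For KO diestrus minus proestrus (2 called), edgeR, DESeq2, no weights and leaving out the young mice each gave 0. For KO diestrus minus estrus (4 called), edgeR and leaving out the young mice gave 0, DESeq2, no weights and age 1, and no filter 2. For KO diestrus minus males (4 called), edgeR, DESeq2, no weights and age gave 1, no filter 2 and leaving out the young mice 0. For KO minus WT (5 called), edgeR and no weights gave 1, DESeq2 3 and no filter 2, and for KO females minus males (4 called), edgeR, DESeq2, no weights and age gave 2. The cause was not tested.

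Without the young diestrus mice, the differences of Clk1 turned to 0.13 in WT diestrus minus estrus and, in KO diestrus, to 0.082 against metestrus, 0.009 against proestrus and 0.22 against males. In the same setting KO diestrus minus estrus turned to 0.027 for Hnrnpd and 0.044 for Clk4, and KO diestrus minus males to 0.11 for Clk4. Over 1260 alternative member fold changes, 1117 kept their side of the threshold. These 1117 include changes of sign where neither fit was called. With each mouse left out, members called ranged from 0 to 6 in WT diestrus minus metestrus, 0 to 5 in minus proestrus and minus estrus, 0 to 0 in minus males and 0 to 1 in proestrus minus estrus. In KO they ranged from 1 to 2, 1 to 3, 2 to 5 and 2 to 5 in diestrus minus metestrus, proestrus, estrus and males, 0 to 0 in proestrus minus estrus, 4 to 6 in KO minus WT, 0 to 1 in the genotype difference and 2 to 4 in KO females minus males. Leaving out any 1 of the 3 young WT diestrus mice ended all calls in WT diestrus minus metestrus and minus estrus. Hnrnph1 in KO minus WT, and Hnrnpdl and Cirbp in KO females minus males, passed under all 7 alternatives and with any mouse left out. The alternative with Cnih3 x B6 matings alone holds few WT mice in metestrus, proestrus and estrus.

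For non-coding shares (0 called), array weights gave 2 in KO diestrus minus proestrus and 3 in KO diestrus minus estrus, and retained-intron transcripts alone 2 in the latter. With each mouse left out they ranged from 0 to 1 in WT diestrus minus metestrus and KO diestrus minus proestrus, and from 0 to 3 in diestrus minus estrus of both genotypes. No paired analysis was possible because the labels carry no replicate numbers, and nothing in them says what a shared prefix of mouse names marks. Depth limits the non-coding shares most for Hnrnpd, whose most abundant non-coding transcript had a mean of 10.6 estimated counts.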

Other observations

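The genes outside the list whose level was most like the mean z-score of the 10 members, over the 55 mice with group means removed, were Akap7 and Cep89 (r = 0.723 each), Pnn (0.699), Tbce and Spata7 (0.690 each). Pnn encodes pinin, a nuclear speckle protein. The non-coding counts per 100 gene reads were also related to the level of the gene itself within groups, inversely for Hnrnpa2b1 (r = -0.663) and Rbm3 (r = -0.537) and directly for Clk4 (r = 0.565) and Clk1 (r = 0.390), over 55 mice each; the denominator of the first measure is the second, so these are not independent.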
